A study of Mus musculus with 33 samples.

Results

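The smooth muscle contractile genes described here are Acta2, Actg2, Tagln, Cnn1, Tpm1, Tpm2, Myl9, Mylk and Des, chosen by gene symbol, and all 9 were found among the 37973 genes of the table. They were measured by polyA RNA sequencing in mouse embryonic fibroblasts, taken from embryos of 14 to 15 days, on the way to pluripotency. Lentivirus carried either Dppa2 with Dppa4, nuclear proteins made in early embryos and pluripotent cells, or a control, and every culture received doxycycline at 1 µg/ml in medium with ESGRO, a preparation of leukaemia inhibitory factor. The reprogramming cells of both arms were Col1a1-OSKM+/-; Rosa26-rtTA+/-; Oct4-GFP+/-, so that doxycycline, through rtTA made from the Rosa26 locus, switched on Pou5f1 (Oct4), Sox2, Klf4 and Myc (OSKM) from the Col1a1 locus. Both arms thus carried the reprogramming factors and the reporter, and differed in the added Dppa2/4.

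Cells had been sorted by the surface antigens Thy1, which fibroblasts carry, and SSEA1, which reprogramming cells gain, and by green fluorescence of the Oct4 reporter. There were 17 Dppa2/4 and 13 control libraries of these cells: GFP+ (Dppa2/4 on days 8, 11 and 14, control on days 11 and 14), Thy1-SSEA1+ (both arms on days 8, 11 and 14), Thy1+SSEA1+ (Dppa2/4 alone, on days 2 and 4), Thy1-SSEA1- (both arms on days 2, 4, 8 and 11, Dppa2/4 also on day 14) and Thy1+SSEA1- (both arms on days 2, 4, 8 and 14). From day 8 on, the Thy1-SSEA1+, Thy1-SSEA1- and Thy1+SSEA1- fractions were also sorted as negative for the reporter. One further library per arm was labelled day 2 rtTA-MEF, with the genotype Rosa26-rtTA+/-; Oct4-GFP+/- and therefore no reprogramming factors by its label. Each combination of arm, day and fraction was 1 library, with no replicates, so tests compare fractions or arms over pairs of libraries matched for the rest. Their p-values measure how alike the pairs differed and not the spread between independent cultures.

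Smooth muscle shortens when myosin pulls on actin filaments. The kinase encoded by Mylk starts this by phosphorylating the regulatory light chain encoded by Myl9. Tropomyosins lie along the actin filament, calponin and transgelin bind it, and desmin filaments tie the apparatus to the cell's skeleton. Activated fibroblasts make much of the same set, and smooth muscle actin is a common marker of that state. Many of these genes are known targets of serum response factor, which binds a motif called the CArG box and works with the coactivators myocardin, Mrtfa and Mrtfb.

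The letters before the start sites are shown because the levels of 8 members ran together across the libraries while those of Des ran the other way. RefSeq windows of 250 bases before the annotated start (GRCm38.p6) were held for 7 of the 9 members, all but Tagln and Actg2. The window of Myl9 is given up to the first base that GENCODE vM21 counts as exon (chr2:156775214-156775419, plus strand) and that of Des in full (chr1:75360042-75360291, plus strand). The windows of Acta2 and Tpm1 overlap annotated exons, and 30 bases round each match are given (Acta2, minus strand, chr19:34255438-34255467 and chr19:34255388-34255417; Tpm1, minus strand, chr9:67049415-67049444 and chr9:67049274-67049303). All read 5′ to 3′ on the gene's strand, and capitals mark a CArG box or a run that differs from it by 1 letter.
Myl9: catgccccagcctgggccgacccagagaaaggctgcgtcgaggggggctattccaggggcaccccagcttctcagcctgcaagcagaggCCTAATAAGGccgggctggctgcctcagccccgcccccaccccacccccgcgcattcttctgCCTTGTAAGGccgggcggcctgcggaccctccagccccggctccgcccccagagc
Acta2 farther site: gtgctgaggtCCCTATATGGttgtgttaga
Acta2 nearer site: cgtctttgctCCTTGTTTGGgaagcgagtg
Tpm1 farther site: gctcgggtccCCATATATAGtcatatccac
Tpm1 nearer site: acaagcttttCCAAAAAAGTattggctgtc
Des: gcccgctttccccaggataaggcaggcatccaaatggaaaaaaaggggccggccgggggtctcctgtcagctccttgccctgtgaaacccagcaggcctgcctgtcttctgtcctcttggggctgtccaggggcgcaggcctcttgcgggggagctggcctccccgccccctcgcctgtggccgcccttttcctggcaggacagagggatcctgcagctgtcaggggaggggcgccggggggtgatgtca

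Myl9 held the exact box once, 161 to 152 bases before the start, and a run 1 letter off at 99 to 90. Acta2 held 2 runs 1 letter off, at 84 to 75 and at 34 to 25 bases, and Tpm1 held 2, at 221 to 212 and at 80 to 71. Cnn1, Tpm2, Mylk and Des held neither in this window, which says only that the letters are not there. The window of Mylk (chr16:34784700-34784949, plus strand) precedes a RefSeq start inside the gene, which GENCODE vM21 begins at 34745210. Among 32851 RefSeq promoters of the same length, 1.47% held the exact box and 18.6% a run with at most 1 letter off. The box reads the same on both strands.

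Values are FPKM, fragments of a gene scaled by transcript length and by the total of the library. The depth implied by the lowest values was 21500000 to 43100000 fragments for the OSKM libraries and 13800000 to 16200000 for those labelled rtTA-MEF, so that 1 fragment in a transcript of 2000 bases was worth 0.0116 to 0.0232 FPKM in the OSKM libraries. One library stood apart from its label: that labelled Dppa2/4 day 4 Thy1+SSEA1- had 0.354 FPKM of Dppa2, against 171 to 599 in the other Dppa2/4 libraries of that fraction and 0.149 to 0.527 in its controls. Results that it changes are given with and without it, and it is called the low-Dppa2 library. The library labelled control day 11 GFP+ has a description that names another fraction, and its Nanog, a gene of pluripotent cells, was at 323 FPKM, within the 259.8 to 360.3 of the other GFP+ libraries and above the 74.1 to 232 of the Thy1-SSEA1+ ones.

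Across the sort, 8 of the 9 genes had their highest values in the SSEA1- fractions and low values in GFP+ cells, and Des ran the other way. Acta2, smooth muscle α-actin, ranged from 7.37 FPKM in control GFP+ cells of day 11 to 1273 FPKM in Dppa2/4 Thy1-SSEA1- cells of day 2. In paired tests, 6 of these 8 were lower in GFP+ than in Thy1-SSEA1+ cells, with Mylk too low to test, 7 were lower in Thy1-SSEA1+ than in Thy1-SSEA1- cells and all 8 lower in Thy1-SSEA1+ than in Thy1+SSEA1- cells. Of all genes tested, 25.9%, 12.4% and 13.5% were lower in these comparisons, in that order. No member passed the test between the SSEA1- fractions, where 0.0259% of all genes passed.

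**Figure D1:**
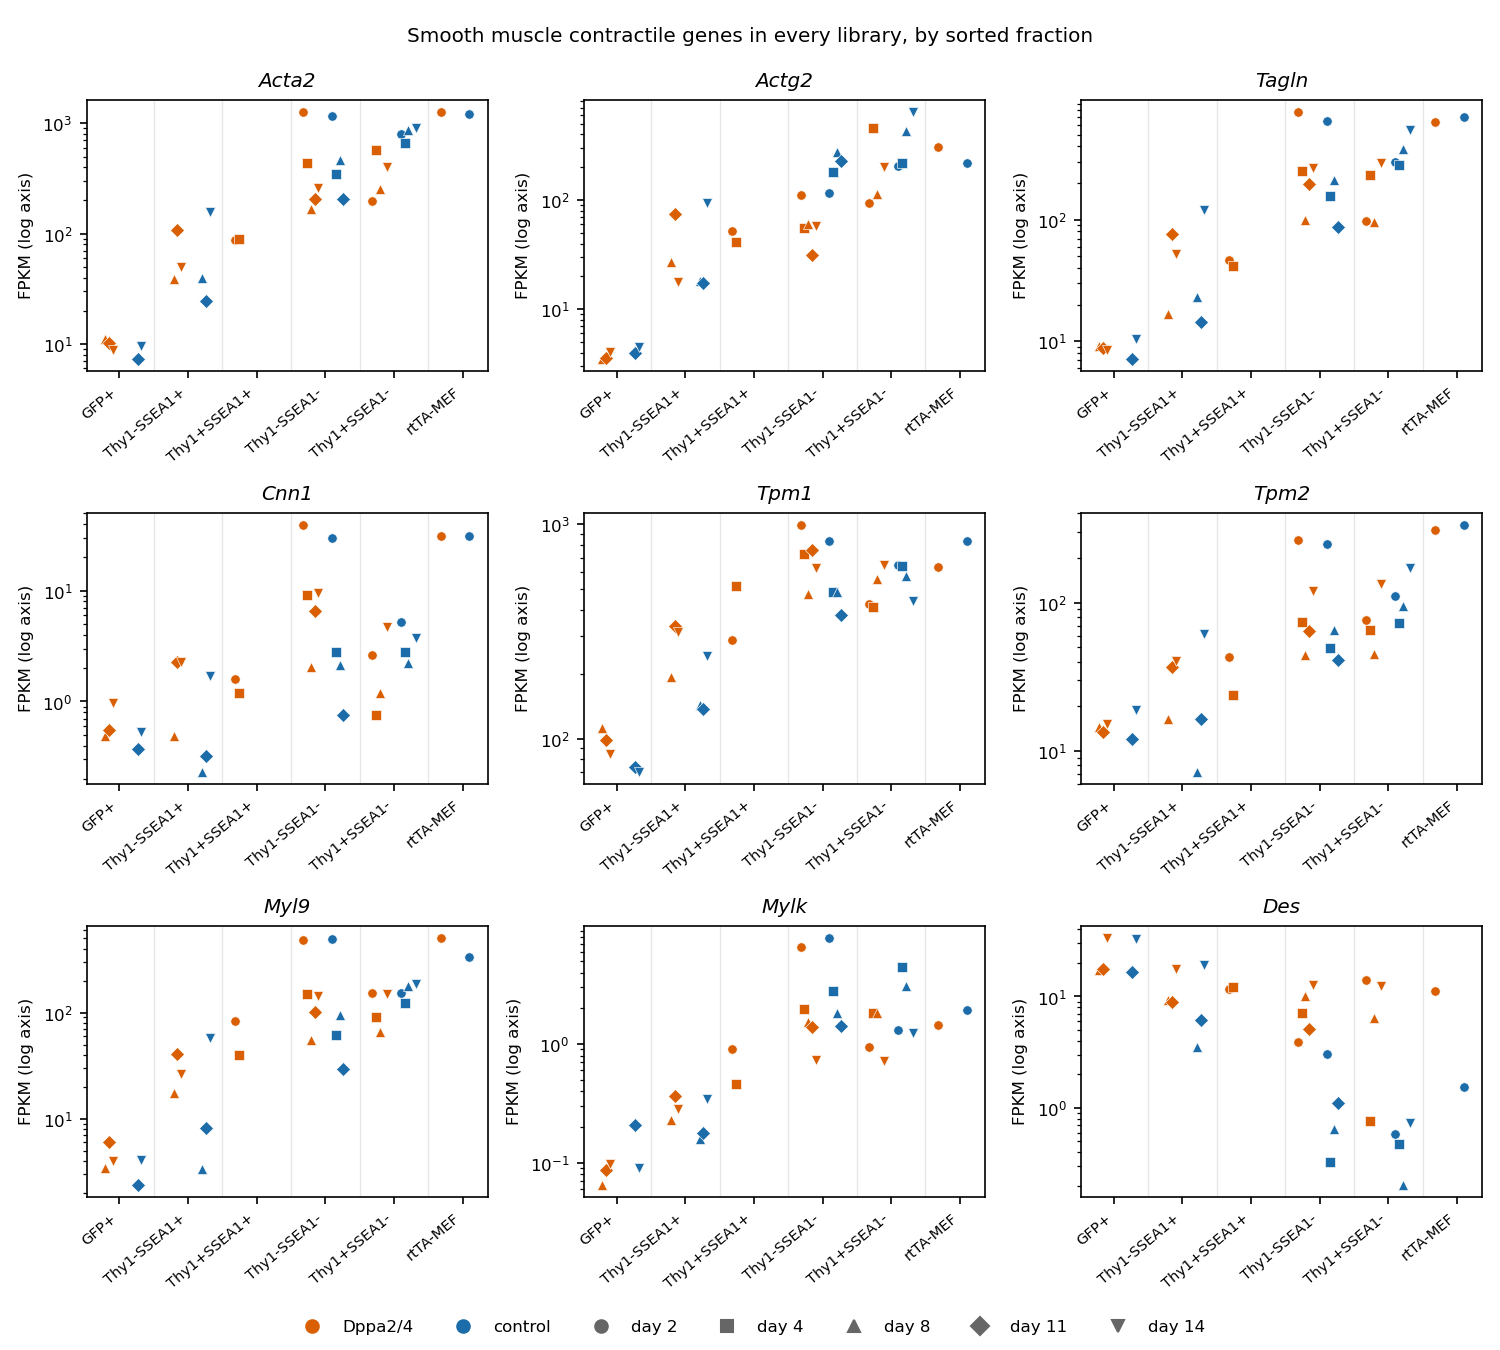
FPKM on a log axis of each of the 9 genes in all 32 libraries, by sorted fraction from left to right, with Dppa2/4 libraries left of control libraries and a symbol for each day. Acta2 lies between 7.37 and 11.1 in the GFP+ libraries and between 167 and 1273 in the SSEA1- libraries, while Des is at 16.7 to 33.6 in the GFP+ libraries.

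The 2 actins were followed first. Acta2 (ENSMUSG00000035783, chr19:34241090-34255590) had 11.1, 10.2 and 8.87 FPKM in Dppa2/4 GFP+ cells of days 8, 11 and 14, and 7.37 and 9.57 in control GFP+ cells of days 11 and 14. In Thy1-SSEA1+ cells of days 8, 11 and 14 it had 39.1, 108 and 49.9 FPKM with Dppa2/4 and 39.4, 24.5 and 156 in controls. The 5 GFP+ libraries lay below all 6 Thy1-SSEA1+ libraries. Acta2 in Thy1-SSEA1- cells had 1273, 434, 167, 207 and 259 FPKM with Dppa2/4 on days 2, 4, 8, 11 and 14, and 1163, 351, 461 and 208 in controls on days 2 to 11. In Thy1+SSEA1- cells of days 2, 4, 8 and 14 it had 199, 575, 252 and 404 FPKM with Dppa2/4, where 575 is the low-Dppa2 library, and 805, 667, 877 and 913 in controls. Every Dppa2/4 library of that fraction lay below every control. The Dppa2/4 Thy1+SSEA1+ cells, which had both antigens, were at 87.8 and 88.5 FPKM on days 2 and 4, within the range of the Thy1-SSEA1+ libraries.

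Actg2 (ENSMUSG00000059430, chr6:83512905-83536265) encodes smooth muscle γ-actin, the form of gut and bladder muscle. It had 3.54, 3.58 and 4.04 FPKM in Dppa2/4 GFP+ cells, and 3.99 and 4.55 in control GFP+ cells, the narrowest range of any fraction. In Thy1-SSEA1+ cells it had 27, 75.3 and 17.6 FPKM with Dppa2/4 and 18.2, 17.5 and 93.3 in controls. Day 11 was the high day with Dppa2/4 and day 14 in controls, as for Acta2. Among Thy1-SSEA1- libraries Actg2 had 112, 55.0, 60.6, 31.5 and 58.3 FPKM with Dppa2/4, and 116, 180.1, 273 and 226 in controls. The Thy1+SSEA1- libraries had 94.0, 453, 114 and 200.3 FPKM with Dppa2/4, where 453 is the low-Dppa2 library, and 203, 218, 431 and 643 in controls. Without that library the Dppa2/4 values of both SSEA1- fractions lay below those of every control of their own fraction.

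The actin-binding proteins Tagln (transgelin, also called SM22; ENSMUSG00000032085, chr9:45929619-45936058) and Cnn1 (calponin 1; ENSMUSG00000001349, chr9:22099216-22109630) differed in level and in spread. Tagln had 8.47 to 9.09 FPKM in the 3 Dppa2/4 GFP+ libraries and 7.23 and 10.5 in the control ones. In Thy1-SSEA1+ cells it had 16.7, 76.1 and 52.2 FPKM with Dppa2/4 and 23.3, 14.5 and 119 in controls, all above GFP+ cells. The Thy1-SSEA1- libraries of Tagln had 770.5, 251, 99.1, 197 and 267 FPKM with Dppa2/4 and 652, 156, 212 and 86.9 in controls. For Thy1+SSEA1- cells the values were 98.0, 231, 95.3 and 294 FPKM with Dppa2/4, and 300.5, 282, 378 and 541 in controls. Tagln thus overlapped between arms in Thy1-SSEA1- cells, and in Thy1+SSEA1- cells its day 14 Dppa2/4 library reached the lower end of the controls. Cnn1 was low in nearly all libraries and high on day 2 in Thy1-SSEA1- cells, at 39.3 FPKM with Dppa2/4 and 29.7 in control. From day 4 on, Cnn1 in that fraction had 9.16, 2.06, 6.61 and 9.48 FPKM with Dppa2/4, and 2.81, 2.15 and 0.754 in controls. Its remaining OSKM libraries ranged from 0.234 to 5.22 FPKM.

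Tpm1 kept the highest level of the set in GFP+ cells, and its relative Tpm2 did not. Tpm1 (α-tropomyosin; ENSMUSG00000032366, chr9:67022590-67049406) had 112, 98.8 and 85.0 FPKM in Dppa2/4 GFP+ cells and 73.4 and 70.2 in control GFP+ cells. The Thy1-SSEA1+ libraries had 193, 337 and 315 FPKM with Dppa2/4 and 144, 137 and 242 in controls. The SSEA1- fractions ranged from 410.0 to 995 FPKM with Dppa2/4 and from 377 to 837 FPKM in controls, and the arms overlapped. The FPKM of Tpm1 over that of Acta2, both per length, was 9.58 to 10.1 in Dppa2/4 GFP+ libraries and 7.34 and 9.96 in control ones, and 0.482 to 3.68 in the SSEA1- libraries of both arms. Tpm2 (β-tropomyosin; ENSMUSG00000028464, chr4:43514711-43523765) had 14.5, 13.3 and 15.2 FPKM in Dppa2/4 GFP+ cells and 12 and 18.8 in control GFP+ cells. Its Thy1-SSEA1+ libraries had 16.3, 37.0 and 40.5 FPKM with Dppa2/4 and 7.26, 16.3 and 61 in controls, so that the control of day 8 lay below every GFP+ library. Tpm2 in the SSEA1- libraries ranged from 44.2 to 264 FPKM with Dppa2/4 and from 41.0 to 249.8 in controls.

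Of the myosin side, Myl9 (regulatory light chain 9; ENSMUSG00000067818, chr2:156775420-156781658) had 3.42, 6.07 and 4.00 FPKM in Dppa2/4 GFP+ cells and 2.40 and 4.12 in control GFP+ cells. Among Thy1-SSEA1+ libraries it had 17.4, 40.7 and 26.1 FPKM with Dppa2/4 and 3.38, 8.19 and 57.1 in controls. The control of day 8 was at the GFP+ level and that of day 14 above all Dppa2/4 libraries of the fraction. The SSEA1- libraries of Myl9 ranged from 55.3 to 488 FPKM with Dppa2/4 and from 29.2 to 494 in controls. Mylk (myosin light chain kinase; ENSMUSG00000022836, chr16:34745210-35002420), whose transcripts are long, had the lowest median of the set over the OSKM libraries, at 0.928 FPKM. In every control SSEA1- library Des lay below Mylk. In GFP+ cells Mylk had 0.0656 to 0.0972 FPKM with Dppa2/4 and 0.209 and 0.0909 in controls. In Thy1-SSEA1+ cells Mylk was at 0.231 to 0.363 FPKM with Dppa2/4 and 0.158 to 0.346 in controls. In the SSEA1- libraries it was at 0.718 to 6.58 FPKM with Dppa2/4 and 1.25 to 7.84 in controls. Every SSEA1- library lay above every Thy1-SSEA1+ library, and the control GFP+ library of day 11 overlapped the Thy1-SSEA1+ range.

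Des (desmin; ENSMUSG00000026208, chr1:75360329-75368579), the intermediate filament protein of muscle, had its highest value in GFP+ cells, where the others but Cnn1 and Tpm2 had their lowest. It had 17.3, 17.8 and 33.6 FPKM in Dppa2/4 GFP+ cells and 16.7 and 33.0 in control GFP+ cells, where the arms of the same day were nearly equal. For Thy1-SSEA1+ cells the values were 9.34, 8.89 and 17.8 FPKM with Dppa2/4 and 3.49, 6.17 and 19.1 in controls. Its Thy1-SSEA1- libraries had 3.87, 7.09, 10.0, 5.08 and 12.8 FPKM with Dppa2/4 on days 2, 4, 8, 11 and 14, against 3.04, 0.324, 0.644 and 1.1 in controls of days 2 to 11. All 5 Dppa2/4 libraries of that fraction lay above all 4 controls. Thy1+SSEA1- libraries of Des had 14.0, 6.39 and 12.5 FPKM with Dppa2/4 on days 2, 8 and 14 and 0.757 in the low-Dppa2 library of day 4, against 0.585, 0.477, 0.205 and 0.728 in controls. The Thy1+SSEA1+ cells, of the Dppa2/4 arm, were at 11.8 and 12.3 FPKM.

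To compare fractions, libraries of the same arm and day were paired, and limma was run on log2(FPKM + 1) over all genes with at least 1 FPKM in at least 2 of the libraries used, with two-sided p-values adjusted by Benjamini-Hochberg over those genes and a threshold of 0.05. In GFP+ against Thy1-SSEA1+ cells (5 pairs), Acta2, Actg2, Tagln, Tpm1, Tpm2 and Myl9 were lower and Des was higher. That is 6 lower and 1 higher of the 8 members that could be tested, where 45.4% of all 15347 genes tested passed, 25.9% lower and 19.5% higher. Actg2 fell by 2.91 (SE 0.40, adjusted p = 0.00268), Acta2 by 2.57 (SE 0.36, adjusted p = 0.00276) and Myl9 by 2.40 (SE 0.28, adjusted p = 0.00174), each lower in 5 of 5 pairs. Tagln fell by 2.12 (SE 0.42), Tpm1 by 1.42 (SE 0.20) and Tpm2 by 1.00 (SE 0.25, adjusted p = 0.0182). Des rose by 0.94 (SE 0.11, adjusted p = 0.00162) and was higher in 5 of 5 pairs. Cnn1 stood at -0.51 (SE 0.21, adjusted p = 0.0910), and Mylk was below the minimum for testing. The median change of the 8 members tested was -1.77, beside -0.06 over all genes tested. The call of Des was lost without the block for arm and day (adjusted p = 0.0560, and 0.00113 to 0.0560 over its 15 alternatives), and that of Tpm2 was kept in 9 of 15. That of Tpm2 was lost without the control day 14 pair (-0.83, adjusted p = 0.0504), the Dppa2/4 day 11 pair (adjusted p = 0.0641) or the Dppa2/4 day 14 pair (adjusted p = 0.0571), and that of Tagln without both day 14 pairs (-1.57, adjusted p = 0.0786).

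Between Thy1-SSEA1+ and Thy1-SSEA1- cells (5 pairs), 7 of the 9 members were lower and 0 higher (1, Des, at an unadjusted p under 0.05), where 21.9% of 15249 genes tested passed, 12.4% lower and 9.55% higher. Acta2 fell by 2.38 (SE 0.35, adjusted p = 0.00774), Tagln by 2.37 (SE 0.24, adjusted p = 0.00464), Myl9 by 2.30 (SE 0.45), Tpm2 by 1.60 (SE 0.31), Tpm1 by 1.33 (SE 0.14, adjusted p = 0.00464), Cnn1 by 1.14 (SE 0.20) and Mylk by 0.92 (SE 0.16). Actg2, at -1.81 (SE 0.72, adjusted p = 0.114), did not pass. Its differences were -1.14, 1.23 and -1.67 with Dppa2/4 on days 8, 11 and 14, and -3.84 and -3.62 in controls of days 8 and 11. Des was at 0.86 (SE 0.29, adjusted p = 0.0739), higher in 4 of 5 pairs. The median of the 9 members was -1.60, beside 0.01 over all genes. With the day 8 pairs left out, 0 of the 9 passed, at -2.11 for Acta2 (adjusted p = 0.0768), and without the block Cnn1 (adjusted p = 0.198) and Tpm2 (adjusted p = 0.0555) did not. Over all genes, leaving out pairs or days gave as few as 14 higher and as few as 7 lower, from 1456 and 1884. With the Dppa2/4 day 11 pair left out, Actg2 passed at -2.56 (adjusted p = 0.0252, and 0.0252 to 0.422 over its 14 alternatives).

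Between Thy1-SSEA1+ and Thy1+SSEA1- cells (4 pairs, days 8 and 14), all of the members but Des were lower, 8 of 9, where 24.1% of 15196 genes tested passed, 13.5% lower and 10.6% higher. Actg2 fell by 3.19 (SE 0.39, adjusted p = 0.0105), Acta2 by 3.16 (SE 0.33, adjusted p = 0.0101), Myl9 by 2.85 (SE 0.61, adjusted p = 0.0257), Tagln by 2.76 (SE 0.31) and Tpm2 by 2.03 (SE 0.38). Tpm1 fell by 1.35 (SE 0.22), Mylk by 1.05 (SE 0.28, adjusted p = 0.0412) and Cnn1 by 0.89 (SE 0.22, adjusted p = 0.0353). Des was higher in 4 of 4 pairs, at 1.60 (SE 0.54, adjusted p = 0.0740), with 0.48 and 0.49 with Dppa2/4 and 1.90 and 3.54 in controls. The median of the 9 members was -2.03, beside -0.04 over all genes. With no minimum on the level, 0 of the members and 0 genes in all passed, at adjusted p from 0.0556 for Acta2. The calls of Cnn1 and Mylk were lost without the control day 8 pair (adjusted p = 0.107 for Cnn1 and 0.112 for Mylk) or the control day 14 pair (0.107 for Cnn1 and 0.0797 for Mylk), and further without the Dppa2/4 day 14 pair for Cnn1 (0.0681) and Myl9 (0.0603) and without the Dppa2/4 day 8 pair for Mylk (0.0961). Without the block, Cnn1 (0.182) and Tpm2 (0.0693) were not called. The 3 comparisons share Thy1-SSEA1+ libraries, so their calls are not independent.

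The 2 SSEA1- fractions did not differ in any member at the threshold (7 pairs, limma, 0 of 9 called). At an unadjusted p under 0.05 stood Cnn1, at 1.38 in Thy1-SSEA1- over Thy1+SSEA1- cells (SE 0.45, adjusted p = 0.317), and Actg2, at -1.03 (SE 0.35, adjusted p = 0.344). Of 15473 genes tested 0.0259% passed here, 0.0129% higher and 0.0129% lower. The day 2 pairs went apart from the later ones. Acta2 was higher in Thy1-SSEA1- cells by 2.67 with Dppa2/4 and 0.53 in control on day 2, and stood at -0.93 to -0.40 in the 5 later pairs. Without the day 2 libraries Acta2 was at -0.70 (SE 0.10, adjusted p = 0.0580) and Tagln at -0.33, both short of the threshold.

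**Figure D2:**
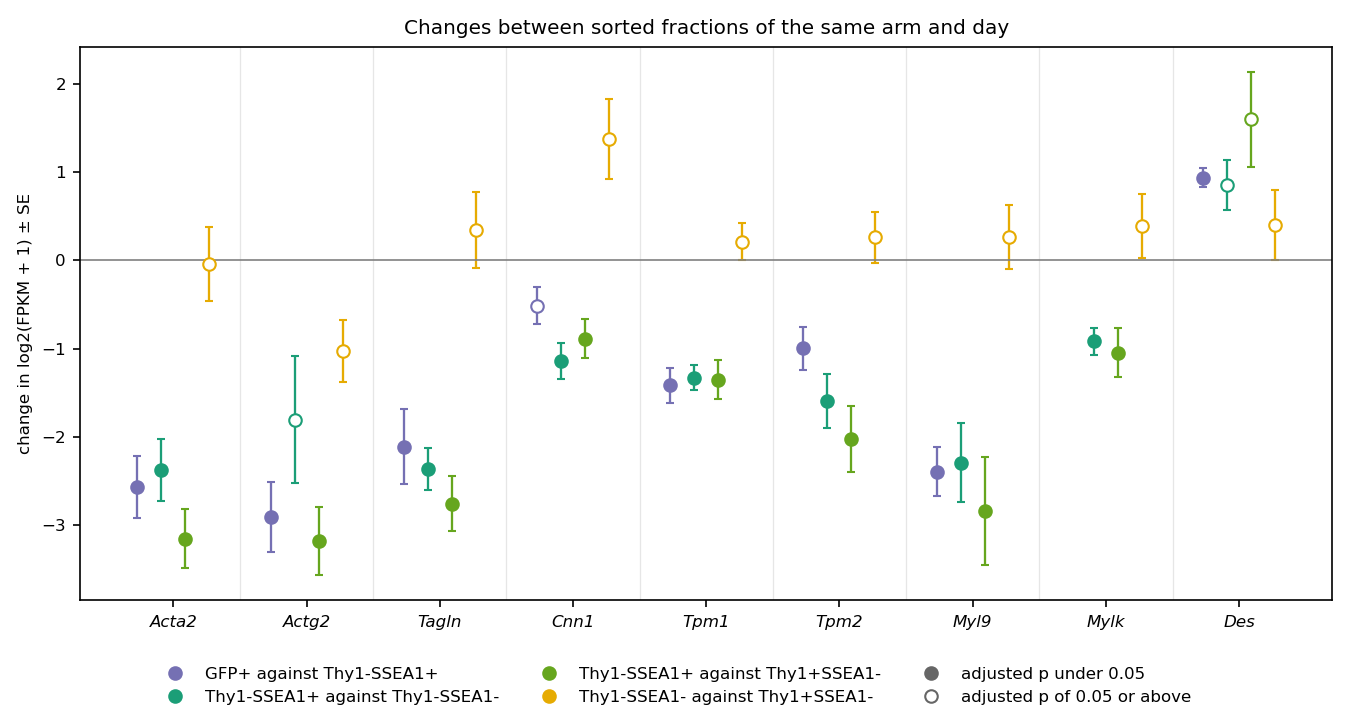
Change in log2(FPKM + 1) with its standard error for each gene in 4 comparisons of sorted fractions, with pairs of the same arm and day as blocks. Filled points passed an adjusted p of 0.05. Filled points lie between -0.89 and -3.19 for 8 genes and at 0.94 for Des, and no gene passed between the SSEA1- fractions. Mylk was not tested between GFP+ and Thy1-SSEA1+ cells.

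Fibroblast markers moved with these differences. The summed FPKM of 7 of them (Thy1, Col1a1, Col1a2, Pdgfra, Lum, Dcn, Postn) was 24.5 to 56.2 in Dppa2/4 GFP+ cells and 32.8 to 75.3 in control ones, and 72.1 to 285 in Dppa2/4 Thy1-SSEA1+ cells and 65.2 to 371 in control ones. It was 599 to 4691 in Dppa2/4 Thy1-SSEA1- cells and 936 to 5224 in control ones, and 567 to 1609 in Dppa2/4 Thy1+SSEA1- cells and 1787 to 2206 in control ones. Of the 7, all were lower in GFP+ than in Thy1-SSEA1+ cells and in Thy1-SSEA1+ than in Thy1-SSEA1- cells (limma). In Thy1-SSEA1+ against Thy1+SSEA1- cells 6 were lower and 0 higher. Of all genes, 25.9%, 12.4% and 13.5% were lower in these comparisons, in that order. None of the 7 was at 0 in any library. In the Thy1-SSEA1+ fraction the sum was highest in the control library of day 14, at 371, and the Dppa2/4 library of day 11, at 285, the same libraries in which Acta2, Actg2, Tagln and Myl9 stood highest. Thy1 was itself used in the sort. The part of these markers in the changes of the contractile genes was not tested, and in bulk RNA fewer cells of a type and less RNA per cell cannot be told apart.

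Markers of other cell types differed by list. Of 10 striated muscle markers, 9 were below 1 FPKM in every OSKM library, Myod1 at no more than 0.0901 and Tnnt2 at no more than 0.744, and Myl7 was the exception described below. Myh11, the myosin heavy chain of mature smooth muscle, was at 0.574 FPKM or less in all OSKM libraries but those of day 2 Thy1-SSEA1- cells, at 3.91 with Dppa2/4 and 2.81 in control. The 7 pericyte markers summed to 86.1 to 149.9 FPKM in Dppa2/4 GFP+ cells and 109 to 121 in control ones. In SSEA1- libraries they summed to 48.9 to 99.9 FPKM with Dppa2/4 and 29.0 to 104 in controls. Mcam made up most of the GFP+ sums, at 80.2 to 140 FPKM, and was at 9.17 to 51.6 in SSEA1- libraries. Pdgfrb went the other way, at 1.00 to 2.90 FPKM in GFP+ cells and 3.72 to 61.7 in SSEA1- libraries. Of 5 tested, 3 were lower and 1 higher in Thy1-SSEA1+ cells than in each SSEA1- fraction (limma). Of 4 tested, 2 were lower and 0 higher in GFP+ than in Thy1-SSEA1+ cells. Of all genes, 12.4% (Thy1-SSEA1-), 13.5% (Thy1+SSEA1-) and 25.9% (GFP+) were lower. Of 4 endothelial markers, Cdh5 reached 0.148 FPKM and Kdr 2.17, while Tek reached 33.0 FPKM in Thy1+SSEA1- cells and Pecam1 65.0 in GFP+ cells. Their sum was 19.9 to 66.2 FPKM in Dppa2/4 GFP+ cells and 25.9 to 49.2 in control ones, and 2.09 to 32.2 in Dppa2/4 SSEA1- libraries and 4.41 to 33.2 in control ones. Of 4 macrophage markers, Ptprc reached 0.155 FPKM, Adgre1 1.00 and Csf1r 2.57, while Cd68, a lysosomal protein, ranged from 3.11 to 82.6.

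Epithelial markers also differed between the fractions. The summed FPKM of Epcam, Cdh1, Krt8 and Krt18 was 234 to 269.7 in Dppa2/4 GFP+ cells and 229 to 275 in control ones, and 303 to 619 in Dppa2/4 Thy1-SSEA1+ cells and 303 to 773 in control ones. It was 11.2 to 529 in Dppa2/4 SSEA1- libraries and 4.84 to 123 in control ones. Of these 4, 3 were lower in GFP+ than in Thy1-SSEA1+ cells, 3 were higher in Thy1-SSEA1+ than in Thy1-SSEA1- cells and 2 were higher in Thy1-SSEA1+ than in Thy1+SSEA1- cells (limma). Of all genes, 25.9% were lower in the first of these comparisons, and 9.55% and 10.6% were higher in the others. With Dppa2/4 against control, Epcam, Krt8 and Krt18 were higher, as were Rgs5 of 5 pericyte markers tested and Cd68, and Notch3 and Tek were lower. There 15.6% of all genes were higher and 7.75% lower. The remaining epithelial marker, Cdh1, went the other way without passing, at -0.47 (limma adjusted p = 0.0638), and was lower in 8 of 13 pairs. The part of these markers in the differences of the contractile genes was not tested.

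Dppa2/4 was compared with control over the 13 pairs of the same day and fraction. Of the 9 genes, Des rose, 0 fell and 8 did not pass (limma), where 23.4% of 16835 genes tested passed, 15.6% higher and 7.75% lower. Des rose by 1.38 (SE 0.33, adjusted p = 0.00888), higher in 12 of 13 pairs, with a mean of 11.3 FPKM with Dppa2/4 and 6.58 in control. Without the low-Dppa2 library it was 1.47 (adjusted p = 0.00792), and it passed in 27 of 32 alternatives, with adjusted p from 0.00415 to 0.403. It did not pass without day 8 (1.14, adjusted p = 0.0650), nor without the block for day and fraction (adjusted p = 0.153).

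The other members spread widely about 0. Actg2 stood at -0.80 (SE 0.37, adjusted p = 0.133), Acta2 at -0.42 (SE 0.29, adjusted p = 0.314), Tagln at -0.24 (SE 0.30) and Mylk at -0.21 (SE 0.09, adjusted p = 0.102). Myl9 stood at 0.33 (SE 0.31), Cnn1 at 0.32 (SE 0.23), Tpm1 at 0.30 (SE 0.14, adjusted p = 0.142) and Tpm2 at 0.01 (SE 0.17). At an unadjusted p under 0.05, Actg2 and Mylk were lower. Mylk passed as lower after quantile normalization, at -0.34 (adjusted p = 0.0137, and 0.0137 to 0.823 over 30 alternatives), and Actg2 passed without the day 11 Thy1-SSEA1+ pair, at -1.03 (adjusted p = 0.0413, and 0.0343 to 0.966 over 32). The median of the 9 was 0.01, beside 0.03 over all genes.

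**Figure D3:**
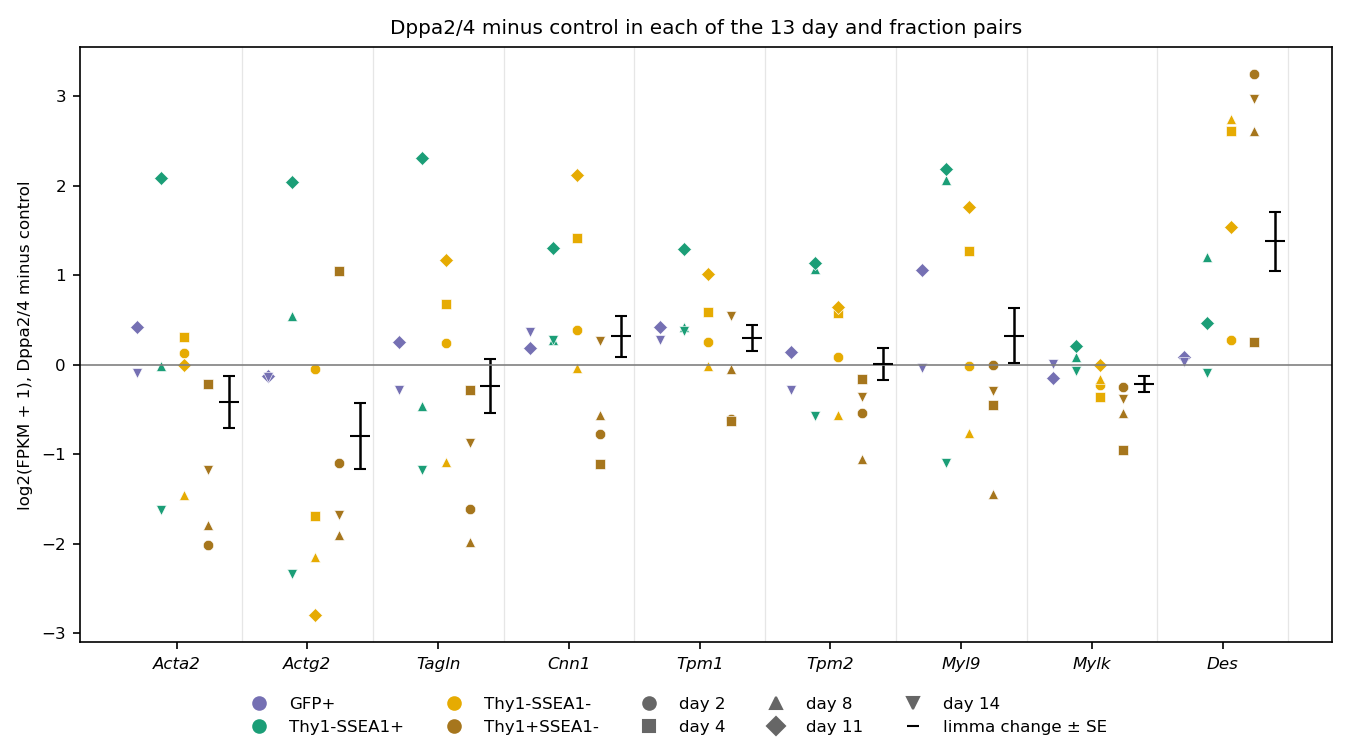
Difference of log2(FPKM + 1), Dppa2/4 minus control, in each of the 13 pairs, by fraction (colour) and day (symbol), with the limma change and its standard error in black. Des is above 0 in 12 of 13 pairs, and Acta2 runs from -2.01 in day 2 Thy1+SSEA1- cells to 2.09 in day 11 Thy1-SSEA1+ cells.

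By fraction, every member but Des had a negative mean difference with Dppa2/4 in Thy1+SSEA1- cells, largest for the actins and Tagln. The mean difference there was -1.30 for Acta2 and -1.19 for Tagln, each lower in 4 of 4 pairs, and -0.91 for Actg2, lower in 3 of 4. Tpm2 and Mylk each averaged -0.53 and were lower in 4 of 4. Cnn1 and Myl9 averaged -0.55 and Tpm1 -0.18, each lower in 3 of 4. In these 4 pairs alone 0 members passed, and 0 genes of all those tested, so that this count says nothing of the members. With the low-Dppa2 library left out (3 pairs, chosen after seeing the data), Des rose by 2.94 (adjusted p = 0.0159), and Acta2 fell by 1.66 (adjusted p = 0.0345), Actg2 by 1.56 (adjusted p = 0.0343) and Tagln by 1.49 (adjusted p = 0.04997), out of 390 genes higher and 146 lower in all. The number of genes tested in these 3 pairs is not given here, so these counts carry no share over all genes. In the same cells the fibroblast sum with Dppa2/4 was below every control, at 567, 990 and 857 FPKM on days 2, 8 and 14, against 1787 to 2206 in controls. Over all 13 pairs 3 of the 7 fibroblast markers were lower with Dppa2/4 and 0 higher, beside 7.75% and 15.6% of all genes. The part of these markers in the arm differences of the members was not tested. In Thy1-SSEA1- cells the 2 actins parted: Actg2 averaged -1.67, lower in 4 of 4 pairs, and Acta2 -0.26, lower in 2 of 4. Neither passed in that fraction alone. In Thy1-SSEA1+ cells the sign turned with the day: Acta2 was at -0.01, 2.09 and -1.62 and Actg2 at 0.55, 2.04 and -2.34 on days 8, 11 and 14. In GFP+ cells the 9 genes lay within -0.29 and 1.06 in both pairs. No member's arm effect differed between the SSEA1+ or GFP+ fractions and the SSEA1- fractions at the threshold (limma interaction, 0 of 9, where 1.02% of genes passed, 0.511% higher and 0.505% lower). Des came nearest, at -1.69 (SE 0.53, unadjusted p = 0.00657, adjusted p = 0.121), and at -1.95 without the low-Dppa2 library (adjusted p = 0.0524). Mylk, at 0.38, was also under an unadjusted p of 0.05. Between days 8 to 14 and days 2 and 4 the arm effect differed for 0 of the 9, with 0 at an unadjusted p under 0.05 as well, where 0.0238% of genes passed, 0.0178% higher and 0.00594% lower.

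The ratio of the 2 actins set the arms apart in Thy1-SSEA1- cells. Actg2 over Acta2, in FPKM and so per length, was 0.0879, 0.127, 0.363, 0.152 and 0.225 with Dppa2/4 on days 2, 4, 8, 11 and 14, and 0.0994, 0.514, 0.592 and 1.09 in controls of days 2 to 11. From day 4 on, every Dppa2/4 value lay below every control value. In Thy1+SSEA1- cells it was 0.473, 0.454 and 0.496 with Dppa2/4 on days 2, 8 and 14 and 0.788 in the low-Dppa2 library, and 0.252, 0.328, 0.492 and 0.704 in controls of days 2, 4, 8 and 14. Across all GFP+ and Thy1-SSEA1+ libraries it was 0.320 to 0.700 with Dppa2/4 and 0.461 to 0.715 in controls. These ratios were chosen after values were seen and are given as a description. Of exact stretches of 50 bases, 0 of 1592 in Actg2 transcripts recur in another gene's transcripts, and 7 of 2146 (0.326%) in Acta2. Stretches with mismatches were not examined, so these counts do not show how reads were shared between the actins.

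**Figure D4:**
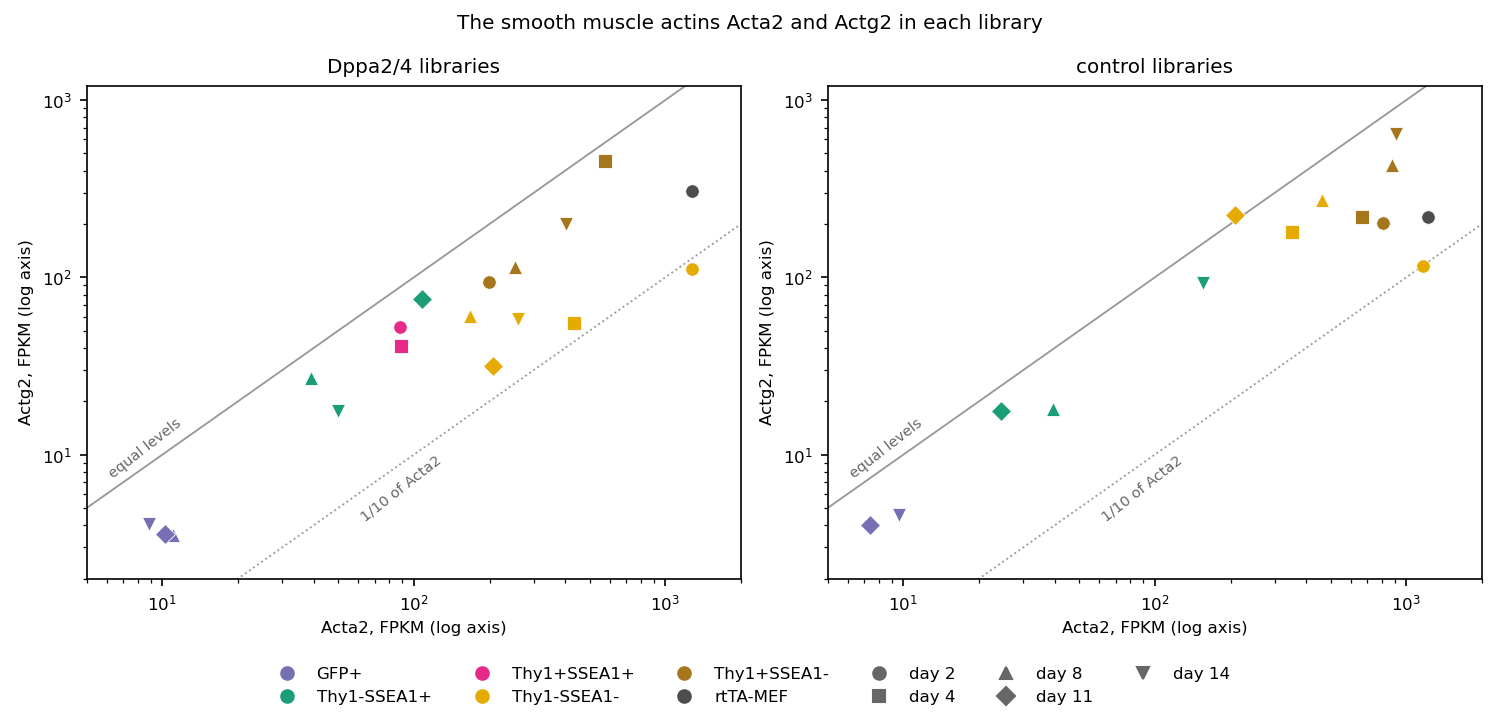
FPKM of Actg2 against that of Acta2, both on log axes, in each Dppa2/4 library (left) and each control library (right), coloured by fraction. The solid line marks equal levels and the dotted line an Actg2 level of 1/10 of Acta2. The Dppa2/4 Thy1-SSEA1- libraries of days 4 to 14 lie at ratios of 0.127 to 0.363 and the control ones of days 4 to 11 at 0.514 to 1.09.

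Another muscle gene also rose with Dppa2/4. Myl7, the atrial regulatory myosin light chain and one of the 10 striated muscle markers, was singled out after its values were seen. In Thy1+SSEA1- cells Myl7 had 45.7, 6.88 and 21.5 FPKM with Dppa2/4 on days 2, 8 and 14 and 0.0940 in the low-Dppa2 library, and 0 to 0.384 FPKM in the 4 controls. In Thy1-SSEA1- cells it had 3.42, 17.7, 8.43, 7.94 and 18.2 FPKM with Dppa2/4, and 0 to 0.226 in the 4 controls. In GFP+ cells the arms overlapped, at 3.84 to 6.03 FPKM with Dppa2/4 and 3.88 and 10.4 in controls. Over the 13 pairs Myl7 rose by 2.33 (SE 0.44, limma adjusted p = 0.00260), higher in 12 of 13. Over 14 pairs, with that labelled rtTA-MEF, Des, Myl7 and Myocd were each higher with Dppa2/4 in 13. Myocd, the smooth muscle coactivator myocardin, stayed low and was not tested. It had 0.279 to 0.862 FPKM in Dppa2/4 Thy1-SSEA1- cells and 0.0622 to 0.155 in control ones.

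**Figure D5:**
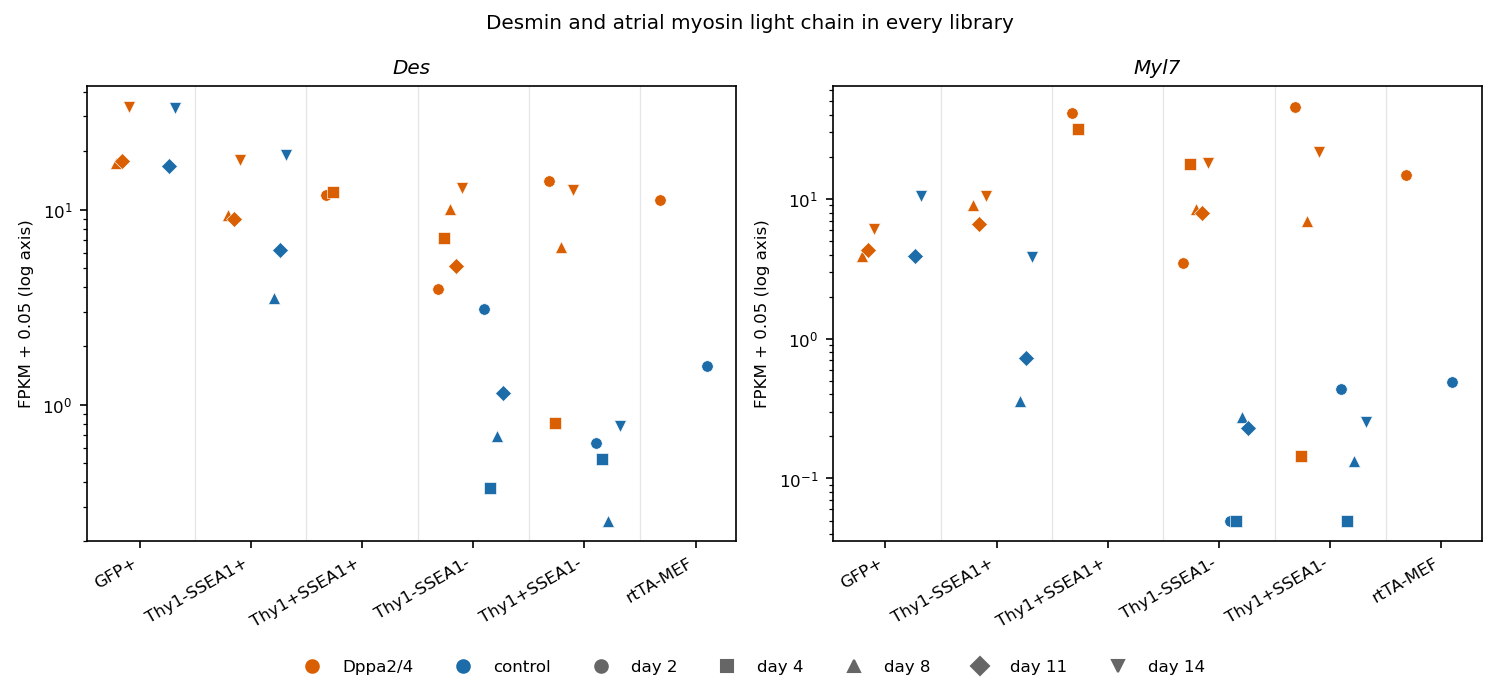
FPKM of Des and Myl7, with 0.05 added for the log axis, in all 32 libraries by fraction, Dppa2/4 left of control. In the SSEA1- fractions Des is at 3.87 to 14.0 with Dppa2/4, apart from the low-Dppa2 library at 0.757, and at 0.205 to 3.04 in controls. In GFP+ cells both genes overlap between the arms.

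A change per day was tested within each SSEA1- fraction, with a term for the arm, and 1 member passed. In Thy1+SSEA1- cells (8 libraries, days 2 to 14) 0 of 9 passed in limma, 0 also at an unadjusted p under 0.05, where 2.1% of 14742 genes passed, 1.3% higher and 0.8% lower. Without the low-Dppa2 library Actg2 rose by 0.12 per day (adjusted p = 0.0140, and 0.0140 to 0.846 over 18 alternatives) and Tagln by 0.10 per day (adjusted p = 0.0417, and 0.0417 to 0.984 over 18). In Thy1-SSEA1- cells (9 libraries) Mylk fell by 0.16 per day (SE 0.03, adjusted p = 0.0465), the 1 member of 9 that passed, where 2.77% of 14995 genes passed, 1.68% higher and 1.09% lower. At an unadjusted p under 0.05, 5 members were lower and 0 higher. The share of all genes at that unadjusted level is not given here, so this count has nothing to be set against. Without the day 2 libraries Acta2 was at -0.08, Tagln at -0.01, Cnn1 at -0.03 and Myl9 at -0.04 per day. Tpm1 was then at -0.02 and Tpm2 at 0.04, and none of these passed. Mylk had 6.58, 1.98, 1.52, 1.40 and 0.732 FPKM with Dppa2/4 on days 2, 4, 8, 11 and 14, and 7.84, 2.82, 1.82 and 1.41 in controls of days 2 to 11. Its call was lost without the day 2 libraries, at -0.08 per day (adjusted p = 0.246), and also when any other library of that fraction but the Dppa2/4 one of day 4 was left out.

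Over the OSKM libraries Actg2 (643 FPKM, control Thy1+SSEA1-) and Des (33.6, Dppa2/4 GFP+) were highest on day 14, and the other members on day 2. In Thy1-SSEA1- cells of that day Acta2, Tagln, Cnn1, Tpm1, Tpm2 and Mylk had the highest FPKM of any OSKM library, in 1 arm or the other, as did Myl9 at 488 with Dppa2/4 and 494 in control. Acta2, Tagln and Cnn1 were then near the libraries labelled rtTA-MEF and Mylk was above them. In those libraries Acta2 had 1272 FPKM with Dppa2/4 and 1224 in control, Tagln 641 with Dppa2/4 and 696 in control, Cnn1 30.9 with Dppa2/4 and 31.4 in control, and Mylk 1.44 with Dppa2/4 and 1.94 in control. The day 2 Thy1-SSEA1- libraries had less RNA of the reprogramming factor Pou5f1 than the other cells of the day, at 75.7 FPKM with Dppa2/4 and 94.9 in control, against 327 with Dppa2/4 and 336 in control in Thy1+SSEA1- cells. They also had the highest fibroblast sums, 4691 FPKM with Dppa2/4 and 5224 in control. The labels of the rtTA-MEF libraries name no OSKM cassette, yet Pou5f1 was at 1116 FPKM with Dppa2/4 and 122 in control, which goes against that genotype. In that pair Des had 11.2 FPKM with Dppa2/4 and 1.53 in control, and Myl7 14.9 with Dppa2/4 and 0.442 in control, a pair with no replicate and no test.

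Of 27 other contractile genes, 26 could be tested between the arms, and 3 rose and 0 fell with Dppa2/4, a share no higher than the 15.6% of all genes that rose. They were Cald1 (caldesmon, an actin-binding protein), by 0.68 (SE 0.18, adjusted p = 0.0168, 11 of 13 pairs), Synm (synemin, a filament protein that joins desmin), by 0.65 (SE 0.12, adjusted p = 0.00220, 13 of 13), and Pdlim7 (a scaffold on actin bundles), by 0.48 (SE 0.15, adjusted p = 0.0339, 11 of 13). Synm averaged 2.53 FPKM with Dppa2/4 and 1.18 in control. Between fractions 13 of 24 tested fell in GFP+ against Thy1-SSEA1+ cells, 10 of 24 in Thy1-SSEA1+ against Thy1-SSEA1- cells and 13 of 24 in Thy1-SSEA1+ against Thy1+SSEA1- cells, and 0 rose, beside 25.9%, 12.4% and 13.5% of all genes that fell in these comparisons. Cald1 fell in each of the 3, at -2.28, -1.66 and -1.95. Beside it stood Tpm4 at -1.81 and Pdlim7 at -1.44 in the first, Itga8 at -1.59 and Tpm4 at -1.46 in the second, and Cnn2 at -1.89 and Vcl, the adhesion protein vinculin, at -1.53 in the third. The median over this list was 0.05 between the arms and -0.56, -0.54 and -0.79 between the fractions, in that order.

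Of 14 regulators of the contractile programme, 13 were tested. With Dppa2/4, 3 rose and 1 fell, beside 15.6% and 7.75% of all genes: Fhl2 (a coactivator with LIM domains) rose by 0.77 (SE 0.22, adjusted p = 0.0231), Rock2 (a kinase that acts on myosin phosphorylation) by 0.60 (SE 0.15, adjusted p = 0.0117, 13 of 13 pairs) and Rock1, its paralogue, by 0.54 (SE 0.17, adjusted p = 0.0332, 8 of 13). Fhl1, another LIM protein, averaged 25.4 FPKM with Dppa2/4 and 51.3 in control, at -1.07 (SE 0.20, adjusted p = 0.00226), and was lower in 12 of 13 pairs. Between GFP+ and Thy1-SSEA1+ cells 2 rose and 5 fell, beside 19.5% and 25.9% of all genes. Among those that fell were Fhl2 at -1.96, Rock2 at -1.32 and Mrtfb at -0.93. Between Thy1-SSEA1+ and Thy1-SSEA1- cells 1 rose and 1 fell, beside 9.55% and 12.4% of all genes. Fhl2 fell by 2.17, while Csrp2, a LIM protein of smooth muscle, rose by 1.01. Between Thy1-SSEA1+ and Thy1+SSEA1- cells 0 rose and 3 fell, beside 10.6% and 13.5% of all genes. Those that fell were Fhl2 at -2.58, Mrtfa at -1.07 and Rock2 at -0.97. Srf, which encodes serum response factor, was at 3.94 to 11.5 FPKM in Dppa2/4 libraries and 3.98 to 12.3 in control libraries of OSKM cells. In Thy1+SSEA1- cells Fhl2 rose by 0.18 per day (limma adjusted p = 0.0490), the 1 regulator that rose, beside 1.3% of all genes.

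Over the 30 OSKM libraries, which share cultures, days and fractions, the Pearson correlation of log2(FPKM + 1) between the 8 members other than Des ran from 0.403 for Actg2 with Cnn1 to 0.981 for Acta2 with Tagln, and that of Des with the others from -0.779 to -0.229. The nearest member to Myl9 was Tagln (0.952), to Tpm2 Myl9 (0.952), to Tpm1 Myl9 (0.935), to Actg2 Acta2 (0.922) and to Cnn1 Tpm2 (0.848). Among genes with a mean of at least 5 FPKM, the 5 outside the set most like the mean of its standardised levels were Mical2 (0.977), which oxidises actin, Col5a1 (0.976), a fibrillar collagen chain, Magee1 (0.975), Kctd10 (0.974) and Tgfb1i1 (0.972), a focal adhesion protein also called Hic-5, with Col5a1 at 1.84 to 239 FPKM over the same libraries. These are descriptions over libraries that are not independent.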

How the data were processed

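PolyA RNA was sequenced, and the submitters' processing notes name TopHat2, Cuffdiff and the build mm10, with versions and settings not given in the sources used here. The authors deposited 1 table of FPKM per gene. Of its 33 value columns 32 were used. The remaining one matched no sample's labels, 1 control sample (day 11 Thy1+SSEA1-) is not analysed here, and the columns named for day 2 alone were taken as the libraries labelled rtTA-MEF by elimination, since the columns of the sorted day 2 cells name their fraction. Changes were computed with limma 3.58.1 in R 4.3.3 (lmFit, eBayes with a trend) on log2(FPKM + 1), for genes with at least 1 FPKM in at least 2 of the libraries used, two-sided, with Benjamini-Hochberg adjustment over all genes tested and a threshold of 0.05. The blocks were day and fraction between the arms, and arm and day between fractions. FPKM scaling removes the library totals, so the depth was inferred from the lowest FPKM of long single-transcript genes. Members, lists and tests were chosen with earlier results of these data known. Named genes are the 9 members and, per list and comparison, those that passed with the largest changes. The fits were tested on simulated data with known changes. Alternatives were another pseudocount, no minimum or a mean of at least 5 FPKM, quantile normalization, no trend, no block, single fractions, and leaving out each pair, library or day. Genes were placed with GENCODE vM21 (GRCm38), and all 9 members matched.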

Additional observations from a re-analysis of the deposited data

How the results depend on the processing

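The labels give no replicate numbers, so libraries were paired by day, fraction and arm and a block by replicate number could not be tried. Across 1586 alternatives for single genes, 1418 kept their direction and their side of the threshold, 103 changed sign with neither value past it, 11 gained a call, 54 lost one and 0 reversed a call. With Dppa2/4, the count of members that rose was 0 without the block for day and fraction, and 0 in Thy1+SSEA1-, Thy1-SSEA1- or Thy1-SSEA1+ pairs alone, splits added after seeing the data. Over all genes, 2629 rose and 1304 fell with Dppa2/4, and 1516 to 2722 rose and 482 to 1492 fell on leaving out pairs or days. The count that fell was 1 after quantile normalization (Mylk) and 3 in Thy1+SSEA1- pairs without the low-Dppa2 library, also added later. Leaving out pairs or days gave 0 to 1 risen and 0 to 1 fallen. With no minimum on the level, 0 members fell in Thy1-SSEA1+ against Thy1+SSEA1- cells. Leaving out pairs or days gave 6 to 7 fallen there, 0 to 8 in Thy1-SSEA1+ against Thy1-SSEA1- cells and 4 to 6 in GFP+ against Thy1-SSEA1+ cells, where 0 members rose without the block. Over all genes, 696 to 1803, 7 to 1929 and 1672 to 3699 fell on leaving these out, in that order. Per day in Thy1+SSEA1- cells 2 rose without the low-Dppa2 library (0 to 2 on leaving out libraries). Per day in Thy1-SSEA1- cells 0 fell with no minimum, with a mean of at least 5 FPKM (which left Mylk untested) or without the day 2 libraries (0 to 1 on leaving out libraries). The causes were not tested. With 1 library per combination, no value has a replicate error, and Mylk was below the minimum for testing between GFP+ and Thy1-SSEA1+ cells.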
